A study of Homo sapiens with 6 samples.

Results

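The genes described here are 10 collagen genes, COL1A1, COL1A2, COL3A1, COL4A1, COL4A2, COL5A1, COL5A2, COL6A1, COL11A1 and COL18A1, out of 62700 annotated genes, of which 20046 are protein-coding. They encode chains of fibril-forming, basement membrane and microfibrillar collagens, and they were picked with knowledge of the peaks that these same lists placed in them. Every peak whose summit, the position of strongest signal, lay inside the GENCODE version 44 body of a member was taken. This gave 158 peaks in 3 peak lists, 98 with the summit in an exon and 60 with it in an intron. No further interval touched a member from outside.

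RNA bound to DDX5, a DEAD-box RNA helicase, was recovered by RNA immunoprecipitation and sequenced (RIP-seq) to find the RNAs it binds in rhabdomyosarcoma nuclei. All samples were nuclear RNA of RH30 cells, which are an established line of alveolar rhabdomyosarcoma and positive for the PAX3-FOXO1 fusion. The series holds 3 samples taken with an antibody against DDX5 (DDX5_IP) and 3 INPUT samples taken with no antibody, described as biological replicates of a single cell line. One peak list per DDX5_IP sample was analysed, and the INPUT samples were not analysed here, so no level of RNA stands beside any peak.

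Each peak carries a fold enrichment, the authors' ratio of signal over the background of the peak caller, and a −log10 q. Both are values of that peak within its own list. On the main chromosomes there were 23715 peaks in replicate 1, 23651 in replicate 2 and 45832 in replicate 3, with median fold enrichments of 2.66, 3.21 and 2.91. Their sequencing depth is unknown. Many peaks were tied, meaning that at least 10 peaks of their list had exactly the same fold enrichment and p-value, and 53.7% to 68.0% of a list was tied in this way. The libraries were not stranded, so RNA of a collagen gene and of a gene on the opposite strand cannot be told apart. Fewer bound molecules and less of an RNA in the nucleus cannot be told apart either. Marker genes of cell types were listed with earlier results of these data known. For scale, a peak in every list, exonic or not, was found in 25.7% of all 20046 protein-coding genes. Of 10 rhabdomyosarcoma marker genes, 9, all but MYH3, had an exonic peak in every list, among them MYOD1, MYOG, DES and MYCN. Of 10 fibroblast markers 1 did, THY1. FBN1, with 18, 0 and 19 peaks, and PDGFRB, with 0, 3 and 7, had exonic peaks in 2 lists, and the other 7 had no peak in any list. None of 10 endothelial and blood markers had a peak in every list, and only PECAM1 had a peak at all, in replicates 1 and 3.

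A collagen molecule is a triple helix of intertwined chains, in which glycine is the first residue of each Gly-X-Y triplet and packs at the centre of the helix. In the fibril-forming collagens a long uninterrupted helix lies between an amino-terminal propeptide and a carboxy-terminal propeptide, and the carboxy-terminal propeptide aligns the chains before the helix folds. The helix is encoded by many short exons that follow a repeating plan, while the propeptides and the untranslated ends lie in longer exons. Type IV collagen chains have a helix with many interruptions and end in a globular domain through which basement membrane networks join.

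The sequences below contrast the coding exons in which all 3 lists placed a summit with the exons of the helix. In COL5A1, exon 3 at chr9:134699909-134700122 and exon 7 at chr9:134730236-134730475 encode part of the amino-terminal region before the helix, and exon 65 at chr9:134834971-134835204 encodes part of the carboxy-terminal propeptide. They are on the plus strand of GRCh38, as are the other COL5A1 and COL4A2 sequences. The capitals run from the lowest to the highest of the 3 summits, 1 from each list, and show how closely the lists coincided.

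COL5A1 exon 3: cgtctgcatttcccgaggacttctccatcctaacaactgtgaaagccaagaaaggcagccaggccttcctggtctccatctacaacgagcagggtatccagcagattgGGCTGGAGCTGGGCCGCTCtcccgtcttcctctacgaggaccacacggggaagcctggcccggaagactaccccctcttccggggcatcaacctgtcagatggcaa
COL5A1 exon 7: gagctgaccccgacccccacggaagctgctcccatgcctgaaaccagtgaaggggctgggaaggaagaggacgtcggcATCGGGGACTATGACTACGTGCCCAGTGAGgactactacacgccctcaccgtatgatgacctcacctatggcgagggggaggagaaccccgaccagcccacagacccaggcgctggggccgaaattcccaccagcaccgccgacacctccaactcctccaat
COL5A1 exon 65: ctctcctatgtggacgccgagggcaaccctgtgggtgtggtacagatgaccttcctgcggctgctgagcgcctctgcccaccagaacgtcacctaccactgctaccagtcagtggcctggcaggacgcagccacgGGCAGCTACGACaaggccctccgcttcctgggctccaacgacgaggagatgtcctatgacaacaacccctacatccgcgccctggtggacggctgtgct

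Exon 33 of COL5A1 at chr9:134795082-134795126, exon 25 of COL1A2 at chr7:94412584-94412682 (plus strand) and exon 21 of COL4A1 at chr13:110198467-110198631 (minus strand) show the helix plan. Here the capitals mark the glycine codons of the helix, and an exon may begin within such a codon. The exons of COL5A1 and COL1A2 are unbroken repeats with no summit in any list. The exon of COL4A1 holds interruptions of the repeat and a summit of replicate 3.

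COL5A1 exon 33: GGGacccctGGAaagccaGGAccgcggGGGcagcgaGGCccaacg
COL1A2 exon 25: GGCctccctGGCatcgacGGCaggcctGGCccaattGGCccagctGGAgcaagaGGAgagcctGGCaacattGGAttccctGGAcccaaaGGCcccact
COL4A1 exon 21: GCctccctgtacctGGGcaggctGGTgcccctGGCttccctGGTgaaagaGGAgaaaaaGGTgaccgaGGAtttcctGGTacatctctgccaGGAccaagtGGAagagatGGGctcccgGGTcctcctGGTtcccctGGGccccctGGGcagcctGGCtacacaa

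The 10 genes together held 55 peaks in replicate 1, 33 in replicate 2 and 70 in replicate 3. The mean was 52.7 ± 18.6 (SD, n = 3), and the peaks made up 0.232%, 0.140% and 0.153% of the list. Replicate 2 held the fewest, although its list was about as long as that of replicate 1. A peak in every list was found in 8 of the 10 genes, beside 25.7% of all 20046 protein-coding genes, 49.8% of the 10352 protein-coding genes with a peak in any list and 42.2% of the 6167 whose main transcript is at least as long as the shortest member's (4203 bases). An exonic peak in every list was found in 6 members, beside 37.2% of those long genes. Peaks of all lists that overlapped each other were found in 5 members, COL4A2, COL5A1, COL6A1, COL11A1 and COL18A1, beside 30.5% of the long genes. The members were chosen on these lists, so nothing is read from these counts.

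**Figure D1:**
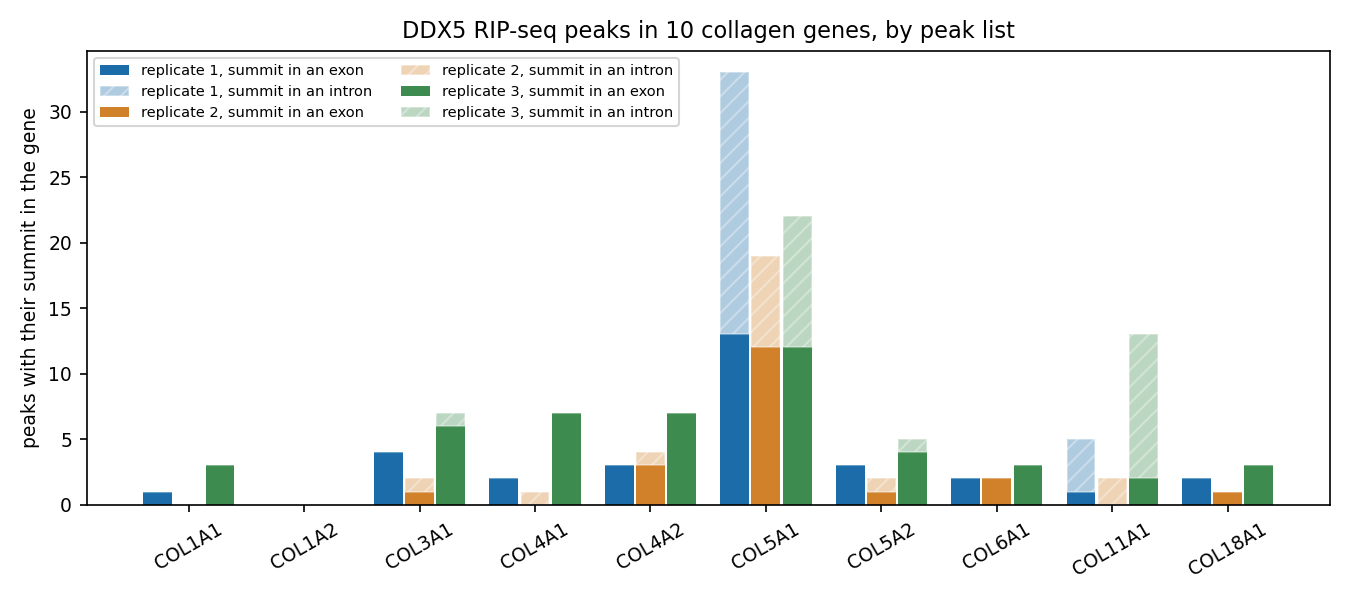
Number of DDX5 RIP-seq peaks (vertical axis) with the summit in each of the 10 collagen genes (horizontal axis), 1 bar per peak list, solid where the summit lay in an exon and hatched where it lay in an intron. COL5A1 stands above the others in every list, with 33, 19 and 22 peaks, and COL1A2 has none.

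Among the chains of the major fibrillar collagens, those of type I had few peaks or none and that of type III had more. COL1A2, which encodes the second chain of type I collagen (chr7:94394895-94431227, plus strand), had none in any list. COL1A1, which encodes its other chain (chr17:50184101-50201632, minus strand), had 1 peak in replicate 1, 0 in replicate 2 and 3 in replicate 3, all in its last exons. Its best peaks, those with the highest −log10 q, had fold enrichments of 3.61 and 3.93 in replicates 1 and 3. The single COL1A1 place found in both was at the end of the coding sequence in exon 51 (chr17:50185451-50185592), with summits 12 bp apart. COL3A1, the chain of type III collagen (chr2:188974373-189012746, plus strand), had 4, 2 and 7 peaks. Its best fold enrichments were 1.81, 3.21 and 3.95, a mean of 2.99 ± 1.09 (SD, n = 3), and no place of COL3A1 was shared by all lists. The best peak of a gene was taken in each list separately, so its mean over lists may join peaks at different places. A place in the 3′ UTR of COL3A1 at chr2:189011715-189012115 had the same fold enrichment, 1.81, in replicates 1 and 3 and no peak in replicate 2.

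The 3 members that belong to types V and XI, the minor fibrillar collagens that regulate the assembly and diameter of fibrils, differed widely among themselves. COL5A1 (chr9:134641803-134844843, plus strand) had 33, 19 and 22 peaks, which ranked it at place 14, 67 and 193 by number of peaks among protein-coding genes. Its exonic peaks numbered 13, 12 and 12, but their make-up differed between the lists. Of these, 7, 7 and 10 lay in coding sequence and 6, 5 and 1 in the 3′ UTR, with 1 more of replicate 3 in a non-coding exon. In replicate 3 a single peak of 2368 bp with 13 summits (chr9:134842133-134844500) spanned most of the 3′ UTR and was counted as coding by its strongest summit. Replicates 1 and 2 had several separate peaks there. The intronic peaks of COL5A1 numbered 20, 7 and 10, with replicate 1 the highest. Its best fold enrichments were 3.76, 9.14 and 3.62, a mean of 5.51 ± 3.14 (SD, n = 3). COL5A2 (chr2:189031898-189225312, minus strand), whose chain pairs with that of COL5A1 in type V collagen, had 3, 2 and 5 peaks, with best fold enrichments of 2.92, 3.26 and 2.84, a mean of 3.01 ± 0.223 (SD, n = 3). None of its places was shared by all lists. A peak in its 5′ UTR in exon 1 was found in replicates 2 and 3 (chr2:189179481-189179710, fold enrichments 3.26 and 2.65), with summits 9 bp apart.

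COL11A1, a chain of type XI collagen known mainly from cartilage (chr1:102876467-103108872, minus strand), had 5, 2 and 13 peaks. The summits of most lay in introns: 4 of 5, 2 of 2 and 11 of 13. Of the 11 in replicate 3, 4 lay within 5 bp of an exon, and their peaks overlapped exons 3, 4, 6 and 7. Its best fold enrichments were 7.58, 4.33 and 9.57, a mean of 7.16 ± 2.65 (SD, n = 3). Its exonic peaks were a pair in exon 1 of replicates 1 and 3, with summits 2 bp apart (chr1:103108043-103108482, fold enrichments 2.25 and 2.93), and a peak in exon 5 of replicate 3. No peak of any list touched an exon after exon 7, and none covered any base of its 3′ UTR of 1546 bases.

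The basement membrane chains had most of their peaks near the 3′ end of the gene. COL4A1 and COL4A2 encode the chains of the most widespread type IV collagen and are transcribed away from each other from neighbouring starts on chromosome 13. COL4A1 (minus strand) had 2, 1 and 7 peaks, with best fold enrichments of 1.54, 4.81 and 4.99, a mean of 3.78 ± 1.95 (SD, n = 3). The only peak of replicate 2 in COL4A1 lay in intron 1. COL4A2 (plus strand) had 3, 4 and 7 peaks, with best fold enrichments of 2.53, 2.66 and 2.78, a mean of 2.66 ± 0.127 (SD, n = 3). Its last exons held 3 places found in every list, in exon 47 (chr13:110507992-110508277) and at 2 places in exon 48 (chr13:110511945-110512454 and chr13:110512656-110512982). The best peaks of replicates 1 and 3 lay at the former place in exon 48, and that of replicate 2 at the latter. Fold enrichments were 2.53, 1.81 and 2.78 at the former and 1.78, 2.66 and 1.82 at the latter. The narrow spread of the best peaks is therefore not the spread of a single place. The fold enrichments in exon 47 were 2.37, 3.19 and 1.99, and that place overlaps COL4A2-AS1, a gene on the opposite strand. A stretch of 151 bases of exon 47, at chr13:110508029-110508179, encodes part of the globular domain and is shown with capitals from the lowest to the highest summit.

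COL4A2 exon 47: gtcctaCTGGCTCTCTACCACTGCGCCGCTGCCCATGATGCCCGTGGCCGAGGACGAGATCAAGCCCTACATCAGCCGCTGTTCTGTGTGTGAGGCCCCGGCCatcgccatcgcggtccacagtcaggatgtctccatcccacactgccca

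COL18A1, which encodes a basement membrane collagen whose carboxy-terminal end is released as endostatin (chr21:45405165-45513720, plus strand), had 2, 1 and 3 peaks. All of them lay in its last exons and also within the gene record of SLC19A1 on the other strand, so their gene of origin cannot be told apart. Their best fold enrichments were 5.53, 2.48 and 7.996, a mean of 5.34 ± 2.76 (SD, n = 3). COL6A1, a chain of the microfibrillar type VI collagen that surrounds muscle fibres (chr21:45981770-46005050, plus strand), had 2, 2 and 3 peaks. Its best fold enrichments were 3.11, 5.13 and 7.52, a mean of 5.25 ± 2.204 (SD, n = 3). The place found in every list spanned the end of its coding sequence and the start of its 3′ UTR in exon 35 (chr21:46003497-46004505), with fold enrichments of 3.39, 5.13 and 7.52. Fold enrichments of the best peaks spread widely within most genes, and the 3 values of COL5A1, COL6A1, COL11A1 and COL18A1 overlap each other, so no order is given among them.

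Within the coding sequence, summits lay at both ends of the collagen mRNAs and were sparse in the triple helix between them. The helix was taken as all runs of at least 6 Gly-X-Y triplets in the translated main transcript. In the fibrillar members this counts a short run ahead of the long run as helix too, and the bases between them as an interruption. Of the 61 summits in coding sequence, 26 lay before the helix, 7 in it, 0 in interruptions between its runs and 28 after it. Those before the helix were mostly of COL5A1, with 20. COL11A1 had 3, COL3A1 2 and COL5A2 1, and the other members had none there. In replicate 2 all 6 were of COL5A1. COL11A1 had none after the helix, so few members had coding summits on both sides of it. Per kilobase of coding sequence this was 4.41 summits before the helix (5901 bases), 0.238 in it (29376 bases) and 3.32 after it (8445 bases). The helix held 0 of 16 coding summits in replicate 1, 1 of 10 in replicate 2 and 6 of 35 in replicate 3, or 0%, 10% and 17.1%. The length of the helix in the same genes, weighted by their coding summits, would give 63.1%, 58.4% and 65.3%. The share of summits minus the share of length had a mean of −53.2 ± 8.57 percentage points (SD, n = 3) and was negative in 3 of 3 lists. The exact permutation test over the signs of the 3 differences, two-sided, gave p = 0.25, the smallest value that 3 lists can give, so this design cannot reach 0.05.

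**Figure D2:**
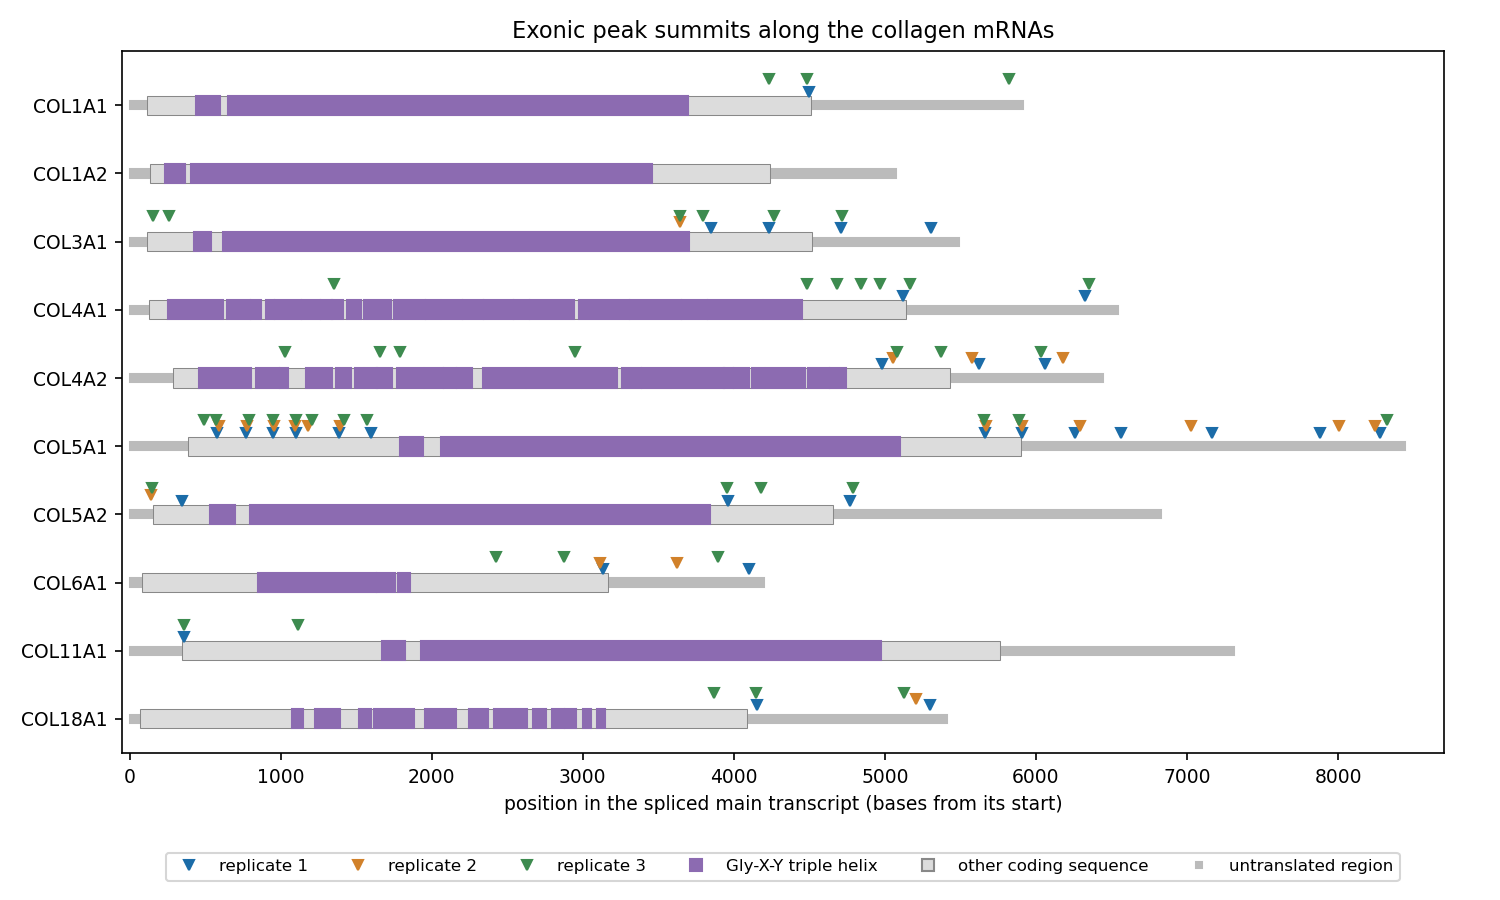
Position of the exonic summits that lie in the spliced main transcript of each gene (horizontal axis, bases from the transcript start), with the helix in purple, other coding sequence as a pale box, untranslated regions as a thin grey bar and the summits as triangles coloured by replicate. The purple helix holds 7 summits, in COL3A1, COL4A1 and COL4A2, and all others lie before it, after it or in the untranslated ends.

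COL5A1 showed the pattern in each list. Its protein has 1838 residues, and its helix lies between residues 469 and 1572 and takes 57.9% of the coding sequence. It is made up of a short run (bases 1790 to 1942 of the mRNA) and a long run (bases 2060 to 5101). In COL5A1, 20 coding summits lay before the helix, 6, 6 and 8 in replicates 1, 2 and 3, and 4 lay after it, 1, 1 and 2. None lay in its 3195 bases of helix. Of its 66 exons, the 56 from exon 9 to exon 64, with a median length of 54 bp, were touched by no peak of any list. Peaks were shared by all lists in exons 2 to 7 of COL5A1. In exon 4 the fold enrichments were 2.06, 1.94 and 2.08, with summits within 5 bp, and in exon 5 they were 1.84, 1.74 and 1.82, with summits within 6 bp. Exon 3, printed above, had 2.45, 3.15 and 3.62, a mean of 3.07 ± 0.592 (SD, n = 3), with summits within 18 bp, and it had the highest mean −log10 q of the shared places of COL5A1, 18.8. Exon 65 had 5.16, 4.33 and 6.42, a mean of 5.30 ± 1.06 (SD, n = 3), with summits within 11 bp. In exon 8, 2 lists had a peak, with fold enrichments of 3.18 in replicate 1 and 7.69 in replicate 3, and replicate 2 had none.

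The 7 helix summits came mostly from a single list. Replicate 3 placed 4 of them in exons 13, 21, 22 and 31 of COL4A2, with fold enrichments of 3.25, 3.16, 3.59 and 4.61, and 1 in exon 21 of COL4A1, with a fold enrichment of 4.99. These belong to type IV collagen, whose helix is interrupted. The remaining 2 lay in exon 47 of COL3A1 in replicates 2 and 3, with fold enrichments of 2.23 and 2.35 and summits 1 bp apart. All 7 were tied in fold enrichment and p-value with at least 10 peaks of their list. Those in exons 21 and 22 of COL4A2 also lay within the gene record of COL4A2-AS2, so their gene of origin cannot be told apart. Without COL5A1, in a check added after the data were seen, the mean difference was −45.9 ± 20.6 percentage points (SD, n = 3). The helix shares were then 0%, 33.3% and 24% of 9, 3 and 25 coding summits, against 67.2%, 59.5% and 68.3% of the length. The difference was thus still negative in each list without COL5A1, but in replicate 2 it rested on only 3 summits.

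**Figure D3:**
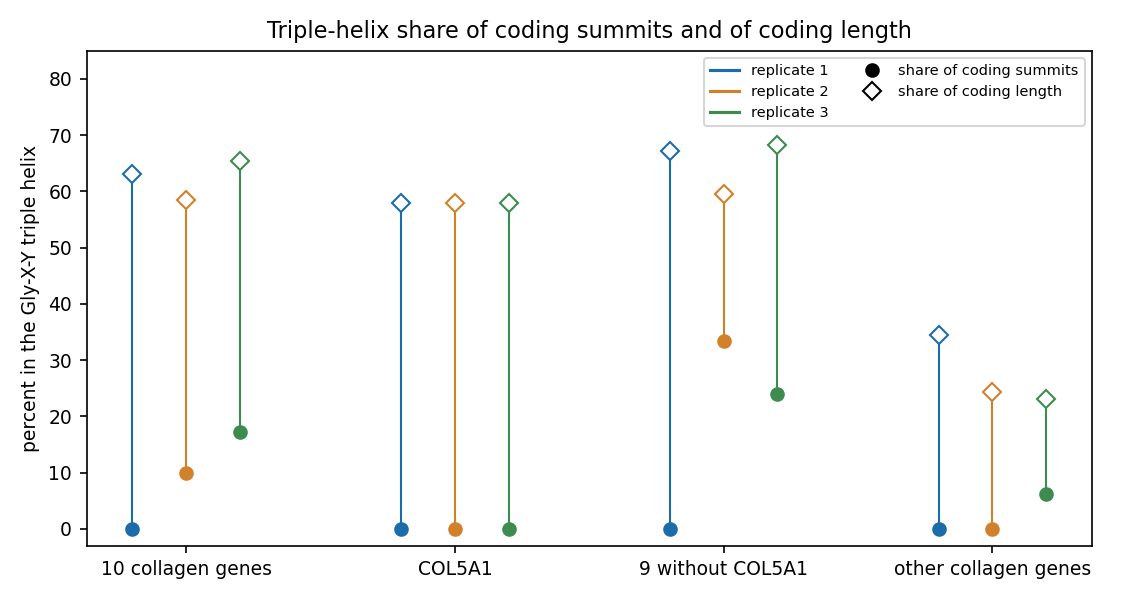
Percent of coding summits that lay in the Gly-X-Y triple helix (filled circles) and percent of the coding length that is helix in the same genes, weighted by their coding summits (open diamonds), for each replicate. The circles lie below the diamonds in every list for the 10 collagen genes, for COL5A1 alone, for the other 9 and for other collagen genes.

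The length of the exons moved with this pattern. Of 342 exons that consist of helix, with a median length of 54 bp, 2 held a summit in any list (0.585%), and 0 did in every list. Of 84 exons that are partly helix, 7 held a summit. Of 91 coding exons without helix, with a median length of 168 bp, 32 held a summit in any list (35.2%) and 11 in every list. These exons include the last exons with their 3′ UTRs, and summits in untranslated bases were counted too. Exon 51 of COL3A1 and exon 42 of COL18A1, for example, held summits in the 3′ UTR only. The 35.2% is thus not a share of exons with a coding summit, and untranslated bases add to its distance from the helix exons. The share of coding summits in exons of up to 120 bp was 0%, 10% and 14.3% in the collagen genes, where such exons make up 62.9%, 60.6% and 58.95% of the coding length. This is a mean ratio of 0.136 ± 0.124 (SD, n = 3). Over all protein-coding genes the shares were 9.15%, 10.4% and 18.4% against 19.1%, 18.9% and 22.4% of length, a mean ratio of 0.616 ± 0.182 (SD, n = 3). Short exons held fewer summits than their length in the collagen genes and in protein-coding genes at large. Among summits in exons over 120 bp, 0 of 16, 0 of 9 and 3 of 30 lay in helix, where helix makes up 14.2%, 8.49% and 23.3% of the length. Exons of up to 120 bp held 0, 1 and 5 coding summits. There the helix held 1 of 1 in replicate 2, against 96.7% of the length, and 3 of 5 in replicate 3, against 78.2%, so these few summits showed little or no deficit of the helix within short exons. The part of exon length in the pattern was not tested beyond this.

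With the coding sequence cut into 3 equal parts, the middle part was nearly bare in the collagen genes. A mean of 0.952% ± 1.65 (SD, n = 3) of the members' coding summits lay in the middle part, with 51.9% ± 7.33 in the first and 47.1% ± 6.23 in the last. The share in the first part rested in large part on COL5A1. Its summits before the helix, 6, 6 and 8 in replicates 1, 2 and 3, all lay in that part. The split was not computed without COL5A1, so it does not describe the other members. Over all protein-coding genes the middle part held 33.2% ± 0.979 (SD, n = 3). In the 34 other collagen genes the middle part held 0 of 3, 2 of 7 and 9 of 32 coding summits, a mean of 18.9% ± 16.4 (SD, n = 3), so it was not bare in replicates 2 and 3. In the same genes, 0 of 3, 0 of 7 and 2 of 32 coding summits lay in helix, which takes 34.5%, 24.3% and 23.1% of their length. Those genes had too few coding summits in replicates 1 and 2 to be set against the members.

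Base composition at the coding summits of all members differed in the same direction in each list. The GC content of the 101 bases around the summit, minus that of the whole coding sequence of the same genes, was −5.91, −4.27 and −5.03 percentage points. The mean difference was −5.07 ± 0.821 percentage points (SD, n = 3), and the same exact permutation test gave p = 0.25, the smallest it can give. Without COL5A1 the mean was −1.73 ± 4.96 (SD, n = 3; p = 0.5 by the same exact test), and the difference no longer had the same sign in every list, so the shared direction rested on that gene. Around the exonic summits of the members the GC content was 53.5% ± 0.659 (SD, n = 3), around their intronic summits 42.6% ± 3.91, and around all peaks of the lists 46.9% ± 1.05. A run of 4 stretches of at least 3 G, with gaps of 1 to 7 bases and read on both strands, lay in 0 of 55, 0 of 33 and 3 of 70 windows of the members. Over all peaks it lay in 1.41% ± 0.123 (SD, n = 3).

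Introns held 24, 13 and 23 of the members' peaks, and they were concentrated in a pair of genes. The exonic share was 56.4%, 60.6% and 67.1%, a mean of 61.4% ± 5.43 (SD, n = 3), below the 87.8%, 66.1% and 83.4% over all peaks in protein-coding genes in each list. COL5A1 held 37 of the 60 intronic peaks (61.7%) and COL11A1 17 (28.3%). In COL5A1, 18 lay in intron 1 (48615 bp long; 12, 3 and 3 in replicates 1, 2 and 3), 7 in intron 11 and 6 in intron 63. In COL11A1, 13 lay in intron 4 (43373 bp long; 4, 1 and 8), all between positions 103067563 and 103074708 of chromosome 1. The median distance from an intronic summit to the nearest exon was 3078 bp, and 6 of 60 were within 100 bp, 4 of them in COL11A1.

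The intronic peaks of the members had a higher median fold enrichment than the exonic peaks in every list. The medians were 3.43, 3.76 and 3.25 in introns (3.48 ± 0.263, SD, n = 3) and 2.22, 2.66 and 2.83 in exons (2.57 ± 0.313, SD, n = 3). Of the 60 intronic peaks, 52 were tied in the sense given above. The tied exonic peaks numbered 9 of 31, 7 of 20 and 25 of 47. The highest fold enrichments of the members in each list, 7.58, 9.14 and 9.57, were all at intronic places. The place with 7.58 in replicate 1 and 9.57 in replicate 3 was chr1:103071492-103072078 in intron 4 of COL11A1, where replicate 2 had no peak. The place with 9.14 in replicate 2 was chr9:134747217-134748348 in intron 11 of COL5A1, where replicate 1 had 5.23 and replicate 3 no peak.

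A pair of intronic places with closely placed summits of all 3 lists is shown next by the bases around the summits, because they lie at least 1461 bp from the nearest exon. At chr9:134744152-134744282 in intron 11 of COL5A1 the fold enrichments were 4.18, 6.57 and 4.38, with summits within 50 bp. At chr1:103073071-103073197 in intron 4 of COL11A1 (minus strand) they were 2.71, 3.05 and 3.93, with summits within 46 bp. The −log10 q at this COL11A1 place was only 1.36, 2.35 and 5.73, and all 3 peaks were tied. It is the only place of COL11A1 found in every list. The capitals run from the lowest to the highest summit.

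COL5A1 intron 11: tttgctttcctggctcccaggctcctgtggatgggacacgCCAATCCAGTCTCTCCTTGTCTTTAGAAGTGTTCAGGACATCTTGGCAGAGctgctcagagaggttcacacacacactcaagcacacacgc
COL11A1 intron 4: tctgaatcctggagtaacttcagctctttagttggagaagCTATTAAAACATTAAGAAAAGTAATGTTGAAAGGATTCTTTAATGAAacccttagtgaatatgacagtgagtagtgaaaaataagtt

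The GC content of the stretch shown was 53.4% in COL5A1 and 31.5% in COL11A1. Another 2 places in intron 1 of COL5A1 were found in every list, chr9:134647615-134648058 with fold enrichments of 4.51, 3.76 and 3.07 and chr9:134649134-134649915 with 3.04, 2.84 and 6.05. The latter overlaps COL5A1-AS1, a gene on the opposite strand. The summits lay within 127 bp at the former but 654 bp apart at the latter. There the peaks with 3.04 and 6.05 did not overlap each other, so its 3 values are not those of a single site. A place in intron 63 (chr9:134826867-134827185) had 2.71, 4.97 and 4.10.

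Merging overlapping peaks gave 86 places in the 9 genes with a peak, of which 19 were found in every list, 22 in 2 lists and 45 in 1 list. COL5A1 held 31 of the places and 13 of those found in every list. Without it 55 places remained, 6 of them in every list. Of the places that held an exonic summit, 14 of 49 were found in every list (28.6%), and of purely intronic ones 5 of 37 (13.5%). The mean fold enrichments had a median of 2.75 over the former and 3.93 over the latter. The summits of a place lay within a median of 60 bp in exons and 105 bp in introns. At COL5A1 exon 6 (chr9:134728593-134728825) the fold enrichments were 3.76, 2.31 and 1.97, and the summit of replicate 1 lay just inside intron 5.

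**Figure D4:**
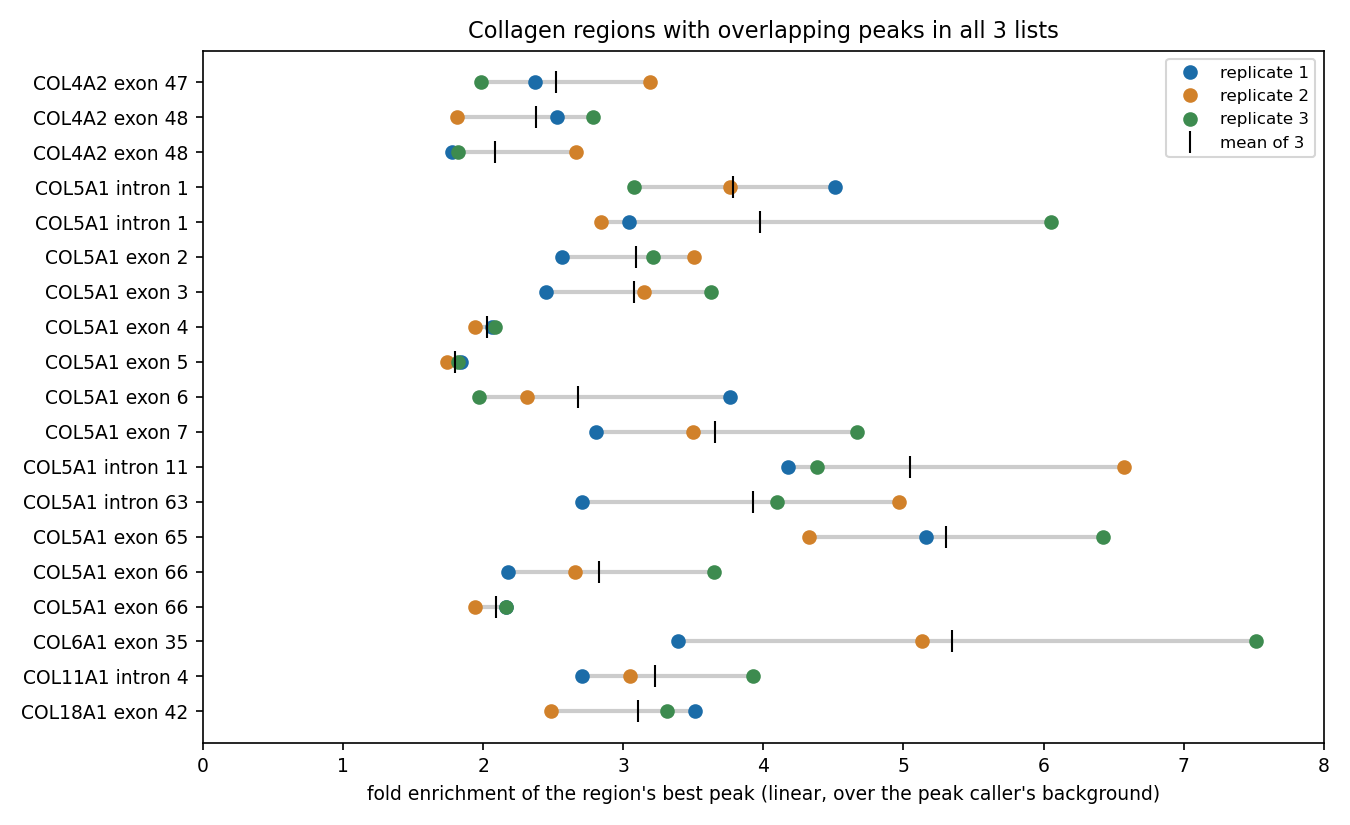
Fold enrichment of the best peak (horizontal axis, linear ratio) at each of the 19 collagen places with overlapping peaks of all 3 lists, with points for the replicates and a tick for their mean. The lists differ least at COL5A1 exons 4 and 5 and most at COL6A1 exon 35, where they range from 3.39 to 7.52.

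The 3′ UTRs held 15, 9 and 10 of the members' summits, with large differences between genes in how much of the 3′ UTR a peak covered. In COL5A1, with a 3′ UTR of 2540 bases, peaks covered 61.9%, 65.3% and 94.1% of it. The wide peak of replicate 3 there was counted as coding, so it is not among the 10 summits of that list. In COL4A2 they covered 56.5%, 54.6% and 57.96%, which is nearly the same share in every list. In COL6A1 they covered 24.9%, 27.5% and 87.8%, with replicate 3 well above the others. In COL3A1 they covered 60.2%, 0% and 31.6%, so the list of replicate 2 had no peak there at all. None of the 3′ UTR was covered in COL11A1 or COL1A2 in any list.

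Collagen 3′ UTRs are well-known targets of the miR-29 family, so matches to the miR-29 seed were listed beside the peaks, in a description added after the data were seen. The mature sequences, from RefSeq with the build GRCh38.p14, are shown with the seed, bases 2 to 8, in capitals. All 3 share it.

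hsa-miR-29a-3p: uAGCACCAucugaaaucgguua
hsa-miR-29b-3p: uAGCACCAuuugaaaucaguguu
hsa-miR-29c-3p: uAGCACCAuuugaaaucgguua

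The seed match TGGTGCT, searched on the transcript strand only, occurred 13 times in the 3′ UTRs of 8 of the 10 members, or 0.913 times per kilobase. It occurred in 2743 of 19539 protein-coding genes with a 3′ UTR (14.04%), or 0.0963 times per kilobase. COL5A1 held 4 matches and COL4A2 held 1, each inside a peak in all 3 lists. The 4 sites of COL5A1 begin at chr9:134843342, 134843382, 134843716 and 134844097, and that of COL4A2 at chr13:110512219. They are shown with the match in capitals.

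COL5A1 match 1: tcaatgaaaatTGGTGCTtattttttaca
COL5A1 match 2: tggctctcttgTGGTGCTatctatctgtt
COL5A1 match 3: ctgaatgtttgTGGTGCTaatttctgtgt
COL5A1 match 4: ctgcggggctcTGGTGCTgtccccgaccc
COL4A2 match: aagggccatttTGGTGCTtattcttaact

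Over all members, 7, 5 and 7 of the 13 matches lay inside a peak (53.8%, 38.5% and 53.8%), where peaks covered 25.6%, 18.6% and 34.7% of the 3′ UTRs of the 8 genes. COL5A1 contributed 4 of the matches in peaks in each list, so the shares rest largely on a gene whose 3′ UTR was mostly covered. The matches of COL1A1, COL1A2, COL5A2 and COL11A1 lay in no peak. A match is a run of letters and does not show that a miRNA binds there.

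Genes of the collagen pathway outside the members were counted in the same way. These lists were drawn up with earlier results of these data known, and their counts are descriptions beside the shares given above. A peak in every list was found in 25.7% of all protein-coding genes and 42.2% of those with a main transcript of at least 4203 bases. A peak in any list was found in 10352 of 20046 protein-coding genes. Of 24 genes for modification, folding and secretion of collagen, 23 had a peak in some list and 15 in every list. SERPINH1, the collagen chaperone HSP47, had best fold enrichments of 2.602, 5.45 and 3.65, a mean of 3.90 ± 1.44 (SD, n = 3). CRTAP, a subunit of the prolyl 3-hydroxylation complex, had 12, 10 and 9 peaks and a mean of 3.70 ± 0.952. CREB3L1, a transcription factor of the endoplasmic reticulum that activates collagen genes, had 5.03 ± 1.43. SEC24D, a coat protein of the vesicles that carry procollagen, had 4.71 ± 0.516. Of 14 genes for processing and cross-linking, 4 had a peak in every list. These were PXDN, the peroxidasin that cross-links type IV collagen, with 3.82 ± 1.22, and the lysyl oxidases LOXL2 with 4.39 ± 0.485, LOXL1 with 3.50 ± 1.25 and LOXL3 with 2.80 ± 1.04.

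Of 20 basement membrane partners, 8 had a peak in every list. HSPG2, which encodes perlecan, had 26, 23 and 71 peaks and a mean best fold enrichment of 6.18 ± 2.83 (SD, n = 3). SMOC1, a calcium-binding matrix protein, had 3.27 ± 0.627. The laminin chains LAMA2, the chain of the basement membrane of muscle, and LAMC1 had 3.65 ± 0.497 and 3.14 ± 1.28. Of 19 collagen receptors and degradation genes, 10 had a peak in every list. DDR2, a receptor tyrosine kinase for fibrillar collagen, had 19, 7 and 16 peaks and 4.84 ± 0.710. TIMP2, an inhibitor of matrix metalloproteinases, had 4.33 ± 2.43, MRC2, an endocytic collagen receptor, 3.99 ± 0.277, and ITGB1, the integrin beta chain of collagen receptors, 4.21 ± 1.22. Of the 34 other collagen genes, 10 had a peak in some list and 6 in every list. The 4 with the highest mean percentile of −log10 q within the lists, which is not their order by fold enrichment in the whole list, were COL25A1 with a mean best fold enrichment of 6.93 ± 1.94 (SD, n = 3), COL15A1 with 5.36 ± 2.47, COL12A1 with 4.65 ± 1.24 and COL19A1 with 2.85 ± 0.566.

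Protein-coding genes outside the collagens were also ranked by how near they lay to the median of the 8 members with a peak in every list. The measure was the Euclidean distance over 6 values, log2(peaks + 1) and log2 of the best fold enrichment in each of the 3 lists. The nearest was GPR161, at a distance of 0.131, with 3, 2 and 7 peaks and best fold enrichments of 3.10, 3.64 and 4.10. It was followed by KIF18B at 0.345, TCOF1 at 0.372, AHNAK2 at 0.379 and TRIM27 at 0.394. This likeness covers the number and height of peaks in 3 lists and no more.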

How the data were processed

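Peak lists of 3 DDX5_IP samples of RH30 nuclear RNA were analysed. Per the submitters' processing notes, the build was GRCh38/hg38 and the tools were MACS2 2.2.7.1, STAR 2.6.1d, SAMtools 1.10, cutadapt 1.11, bcl2fastq 2.20 and FastQC 0.11.8. Their parameters and the control of the peak calls are not given in the sources used here. The deposited fold enrichment is a ratio made by the authors for each peak, and the p-value and q-value were deposited as −log10. The deposited score, which follows the q-value, entered no computation. Depth is unknown, so no interval is given. Each list comes from a single sample. The exact permutation tests over lists reach their smallest value whenever the 3 differences share a sign, so they do not measure the spread between these samples.

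Intervals on the main chromosomes were represented by their summit of highest −log10 q, placed in GENCODE version 44 genes, and called exonic if any transcript of the gene had an exon there. Peaks sharing at least 1 bp were merged. Coding parts and helices were found in the main transcript, translated by script (Python 3.11.15, pandas 2.3.3, numpy 2.4.6, matplotlib 3.10.9). The only tests were the 2 exact sign-flip permutation tests. The computations were tested on simulated data.

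The members and all gene lists (other collagens; modification, folding and secretion; processing and cross-linking; basement membrane partners; receptors and degradation; rhabdomyosarcoma, fibroblast, and endothelial and blood markers) were chosen with earlier results of these data known. Named were the members, their shared places, up to 4 genes of each pathway list with a peak in every list, by mean percentile of best −log10 q, and the 5 genes nearest in pattern; other names were chosen after their values were seen. Alternatives were leaving out each replicate or all summits in a second gene record, lists cut to equal length, a stricter q, a minimum fold, other overlap rules, exonic summits only, every summit and wider windows. Added after seeing the data were leaving out peaks tied in fold and p with at least 10 peaks of the list, leaving out COL5A1, and the descriptions of exon length, parts of the coding sequence, G runs, seed matches and helices of other collagens.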

Additional observations from a re-analysis of the deposited data

How the results depend on the processing

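At a −log10 q of at least 5, 5 genes, 27.7 peaks per list and 7 places in every list were left. At a fold enrichment of at least 4, 2 genes (COL5A1 and COL11A1), 12 peaks per list, 2 places and an exonic share of 32.0% were left. Without tied peaks, 2 genes (COL4A2 and COL5A1), 21.7 peaks per list, 7 places and an exonic share of 88.7% were left. Without COL5A1 there were 28 peaks per list, 6 places and an exonic share of 70.6%. Exonic summits alone gave 32.7 peaks per list, every summit 79.7, reciprocal overlap of 50% gave 11 places, and summits within 100 bp 12. Leaving out each replicate in turn gave 8 to 9 genes, 44 to 62.5 peaks per list, 22 to 36 places, an exonic share of 58.5% to 63.9%, a helix difference of −55.8 to −48.3 and a GC difference of −5.47 to −4.65 percentage points. The 36 places were those without replicate 2. The helix difference lay between −62.5 and −44.8 and the GC difference between −8.45 and −0.763 over all alternatives run, with the last at a fold enrichment of at least 4. The −62.5 was found without tied peaks, where it is no check, since all 7 helix summits were tied. Without COL5A1 the GC difference was −1.73 and not of the same sign in every list. At a fold enrichment of at least 4 the GC difference, −0.763 ± 0.818 (SD, n = 3), was not of the same sign in every list either. Cutting the lists to equal length, or leaving out summits in a second gene record, kept every count within 1.5 times. The 11 and 12 places came from stricter matching of the same peaks, the other lower counts from fewer peaks or genes entering, and the higher ones from counting every summit or from requiring 2 lists in place of 3. The cause of the changes in the exonic share was not tested. No paired analysis was possible because the INPUT samples were not analysed here. Unknown depth, small numbers of coding summits and the absence of any INPUT level beside the peaks limit all values.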

Other observations

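Partner chains and modifying enzymes of the members are given here as values, and these genes were chosen after their values were seen. COL6A2, whose chain joins that of COL6A1 in type VI collagen, had 0, 6 and 4 peaks in replicates 1, 2 and 3, with best fold enrichments of 4.86 and 5.31 in replicates 2 and 3. COL6A3, the third chain of type VI, had no peak in any list. COL5A3 and COL11A2, further chains of types V and XI, had none either. COL2A1, the cartilage collagen, had 3 peaks in replicate 3 alone, with a best fold enrichment of 3.58. Among the enzymes, P4HB, the beta subunit of prolyl 4-hydroxylase, had 5, 4 and 9 peaks and best fold enrichments of 1.84, 4.59 and 4.84. The alpha subunit gene P4HA2 had 4, 5 and 7 peaks, with 2.42, 6.09 and 4.47, while P4HA1 had a single peak, in replicate 2, with 2.45. PLOD2, a lysyl hydroxylase, and LOX, a lysyl oxidase, also had a single peak each, in replicate 2, with 2.91 and 2.89.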
